A study of Mus musculus with 8 samples.

Results

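The genes of 3 families of phase II conjugation enzymes were examined in fasted mouse liver: the UDP-glucuronosyltransferases (UGT), the cytosolic sulfotransferases (SULT) and the glutathione S-transferases (GST). Members were chosen by gene symbol alone among genes with a probe set that named them and no other gene, and where a gene had several such probe sets the one with the highest mean signal stood for it. The rule gave 45 of the 19938 genes tested, namely 10 UGT, 16 SULT and 19 GST genes. Livers of C57BL6 mice were profiled on 8 Affymetrix Mouse Gene ST arrays, with 1 labelled RNA per array. In the hydrogen water group (4 arrays), the mice had received water containing dissolved molecular hydrogen over 4 weeks, beginning when they were 7 weeks old. The other 4 arrays came from control mice, whose water and age the labels do not describe separately, since all 8 samples carry the same treatment text. Both groups were fasted for 17 h before the livers were taken, and their rooms were kept at 24 degrees C with 12 h light and 12 h dark phases. The labels give no genotype beyond the strain and no sex. The design text speaks of 4 control mice and 4 drinking mice, but no label ties an array to an animal, so the p-values measure the spread between these samples, which may in part be technical.

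Conjugation attaches a polar group to a drug, hormone, bile acid or reactive metabolite, which makes it easier to excrete into bile or urine. UGT enzymes sit in the endoplasmic reticulum and transfer a sugar, mostly glucuronic acid, SULT enzymes in the cytosol transfer sulfate, and GST enzymes add glutathione to electrophiles. Hepatocytes are a main site of all of these reactions, and the nuclear receptors PXR and CAR, the receptor AhR and the oxidant sensor NRF2 are well-known regulators of the genes.

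The arrays were alike at the level of the whole table. The median log2 signal per array lay between 5.27 and 5.37, and the correlation between arrays over all genes between 0.988 and 0.995. Xist, the RNA of the inactive X chromosome, stood at 3.05 to 3.46 on all 8 arrays and the Y-linked gene Eif2s3y at 8.49 to 9.16. Hepatocyte markers (7 measured of 8) had a mean log2 signal of 13.93 to 13.97 in controls and 13.92 to 14.00 with hydrogen water. Their means of 13.52 to 14.43 lay near the highest value of any probe set (14.78), and whether such bright probe sets can show a change was not tested. These are bulk samples, in which fewer cells of a type and less RNA per cell cannot be told apart. Values are log2 signals throughout, and a difference is hydrogen water minus control. Signals of different probe sets depend on their probes, so they give no order of abundance between genes.

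No member passed the test over all genes. With limma and Benjamini-Hochberg adjustment over 19938 genes, 0 of 45 members had an adjusted p under 0.05, as had 0% of all genes, and the lowest adjusted p among members was 0.558. Without adjustment, 10 members were lower with hydrogen water and 1 was higher at a p under 0.05, where 3.57% of all genes were lower and 3.6% higher at that level (7.17% in either direction). The mean was lower with hydrogen water in 35 of the 45 members, with a median difference of −0.15, against 51.3% of all genes and a median of −0.00. The groups did not overlap in 6 members, and in those 6 every hydrogen water value lay below every control value, which was so in 2.01% of all genes (3.76% in either direction). Of the 11 members at an unadjusted p under 0.05, 5 stayed under it whichever array was left out (Ugt2b34, Ugt2b35, Ugt2b38, Ugt2b5 and Sult1b1), and the other 6 went above it without at least 1 array. The 3 families are given in turn, and differences between them were not tested.

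**Figure D1:**
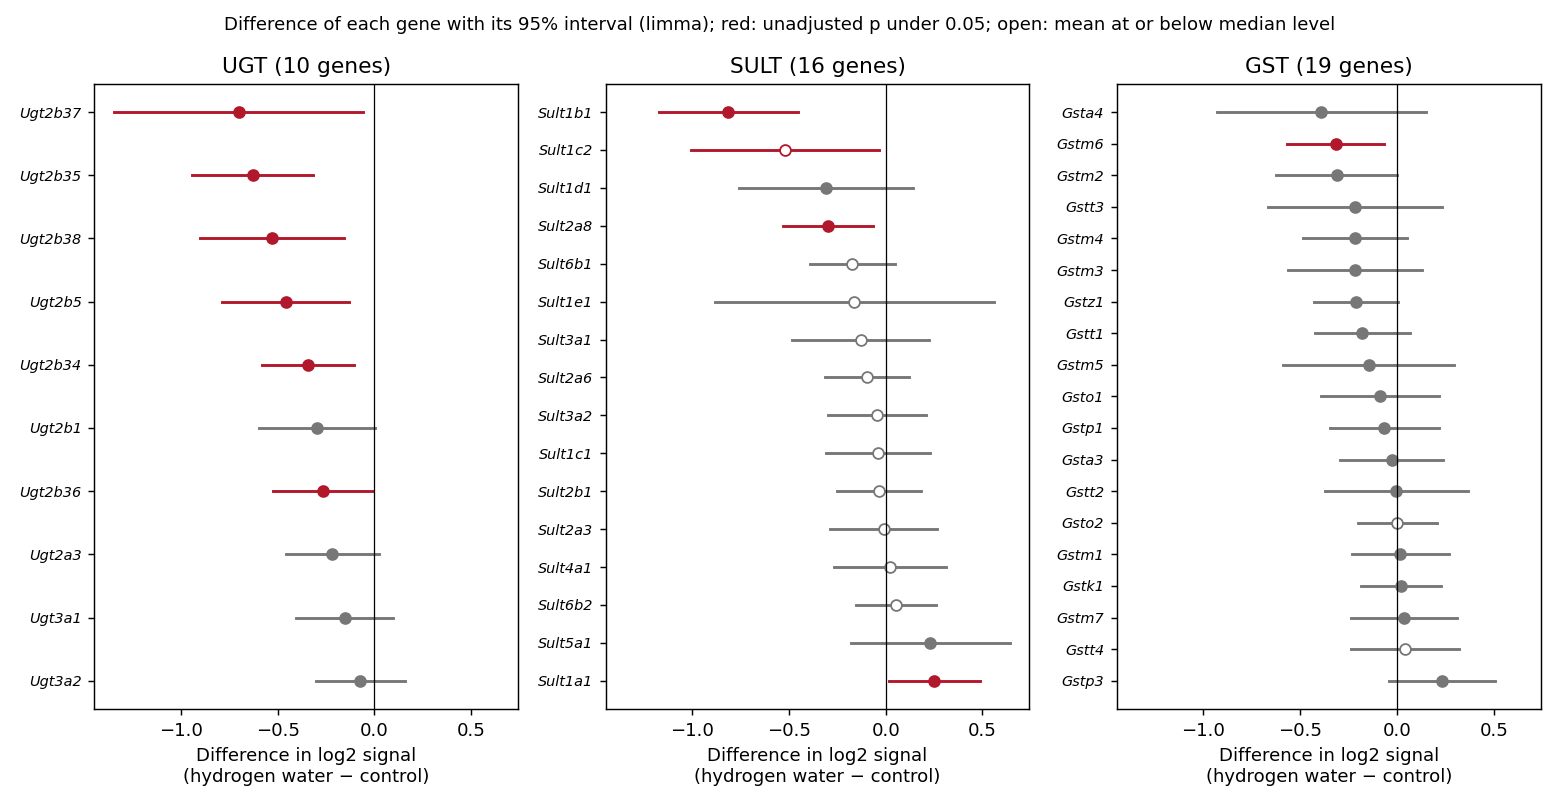
Difference in log2 signal (hydrogen water minus control) of each of the 45 genes, by family, with the 95% interval from limma; red marks an unadjusted p under 0.05 and an open symbol a mean at or below the median level of all genes. All 10 UGT genes lie below 0, while the SULT and GST genes lie on either side, with Sult1b1 the lowest at −0.81.

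All 10 UGT genes had a lower mean with hydrogen water, by a median of 0.32 on the log2 scale (range of the differences −0.70 to −0.07). Of these, 6 had an unadjusted limma p under 0.05, all of the UGT2B subfamily, whose members glucuronidate steroids, bile acids and many drugs. The adjusted p of the 10 genes lay between 0.617 and 0.925. All 10 had a mean above the median level of all genes (5.87), with means from 7.37 to 12.99. Among the 9969 genes above that level, 4.65% were lower at an unadjusted p under 0.05 and 48.5% had a difference below 0. Pooled standard deviations within groups ran from 0.12 to 0.56 with a median of 0.186. The median was 0.176 over all genes and 0.194 over the genes above the median level.

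Ugt2b35 had the lowest p of the family. Its controls read 11.01, 11.02, 10.65 and 10.68, and its hydrogen water arrays 10.15, 10.56, 10.17 and 9.97. The groups did not overlap, with 0.0921 between the nearest values, which belonged to control 3 and hydrogen water 2. The difference was −0.63 (SE 0.14, 95% interval −0.94 to −0.32), a percent difference in signal of −35.4%, with a limma adjusted p of 0.617. The same gene had a two-sided exact permutation p of 0.0286, the smallest that 4 arrays against 4 can give.

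Ugt2b34 read 12.70, 12.40, 12.62 and 12.42 in controls and 12.15, 12.35, 12.14 and 12.13 with hydrogen water. Here too the groups did not overlap, and 3 of the 4 hydrogen water arrays were within a narrow range while array 2 stood near the lowest controls. The difference was −0.34 (SE 0.11, 95% interval −0.58 to −0.10).

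Ugt2b5 read 12.16, 12.24, 12.26 and 12.03 in controls and 11.81, 12.10, 11.63 and 11.31 with hydrogen water. Hydrogen water 2 lay above control 4, and the other hydrogen water arrays lay below every control. The difference was −0.46 (SE 0.15, 95% interval −0.79 to −0.13).

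Ugt2b38 read 10.33, 10.68, 10.54 and 9.98 in controls and 9.81, 10.26, 9.74 and 9.62 with hydrogen water. Control 4 and hydrogen water 2 were again the arrays through which the groups overlapped. The difference was −0.53 (SE 0.17, 95% interval −0.90 to −0.15).

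Ugt2b36, whose probe set had the brightest signal of the family, read 13.26, 13.05, 13.12 and 13.06 in controls and 12.84, 13.16, 12.74 and 12.70 with hydrogen water. Hydrogen water 2 exceeded 3 of the 4 controls, and the other 3 hydrogen water arrays lay below all controls. The difference was −0.27 (SE 0.12, 95% interval −0.53 to −0.01), and its unadjusted limma p stayed under 0.05 in only 1 of the 8 fits with an array left out, that without hydrogen water 2.

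Ugt2b37 had the largest difference of the family and also the largest spread. It read 7.25, 8.81, 7.64 and 7.17 in controls and 7.13, 7.29, 6.91 and 6.73 with hydrogen water, so that control 2 stood far above the other arrays. The difference was −0.70 (SE 0.30, 95% interval −1.35 to −0.06), and without control 2 it was −0.34.

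The other UGT genes had intervals that included 0. Ugt2b1 differed by −0.30 (95% interval −0.59 to 0.00), and by −0.19 without control 3, which read 12.86 against 12.38 to 12.48 on the other controls. Ugt2a3, the only member of the UGT2A subfamily with a probe set of its own, differed by −0.22 (95% interval −0.46 to 0.02). The UGT3 enzymes use sugars other than glucuronic acid. Ugt3a1 differed by −0.15 (95% interval −0.40 to 0.10) and Ugt3a2 by −0.07 (95% interval −0.30 to 0.16). The median difference was −0.46 over the 7 UGT2B genes, and whether the subfamilies differ was not tested.

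The hydrogen water arrays fell in much the same order from one UGT gene to the next. Hydrogen water 2 was the highest of its group in 10 of 10 genes and lay below every control in 2. Hydrogen water 4 lay below every control in 10 of 10 and was the lowest of all 8 arrays in 8, while hydrogen water 1 and 3 lay below every control in 9 and 8. With each gene centred on its own mean, the family median per array was 0.21, 0.08, 0.24 and 0.08 on controls 1 to 4. It was −0.18, 0.09, −0.28 and −0.27 on hydrogen water 1 to 4, so that hydrogen water 2 sat among the controls. Leaving it out raised the number of UGT genes whose groups did not overlap from 2 to 7 and the number at an unadjusted p under 0.05 from 6 to 8. The share of all genes at that p rose as well, from 7.17% to 9.22%. Non-overlap is easier to reach with fewer arrays, and its share of all genes was not counted without an array. Without control 4 the groups did not overlap in 4 genes, and without control 2 or without hydrogen water 1, 3 or 4 there were 4 genes at an unadjusted p under 0.05. In the latter fits 4.80% to 6.42% of all genes were at that p. All 10 differences were below 0 whichever array was left out.

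**Figure D2:**
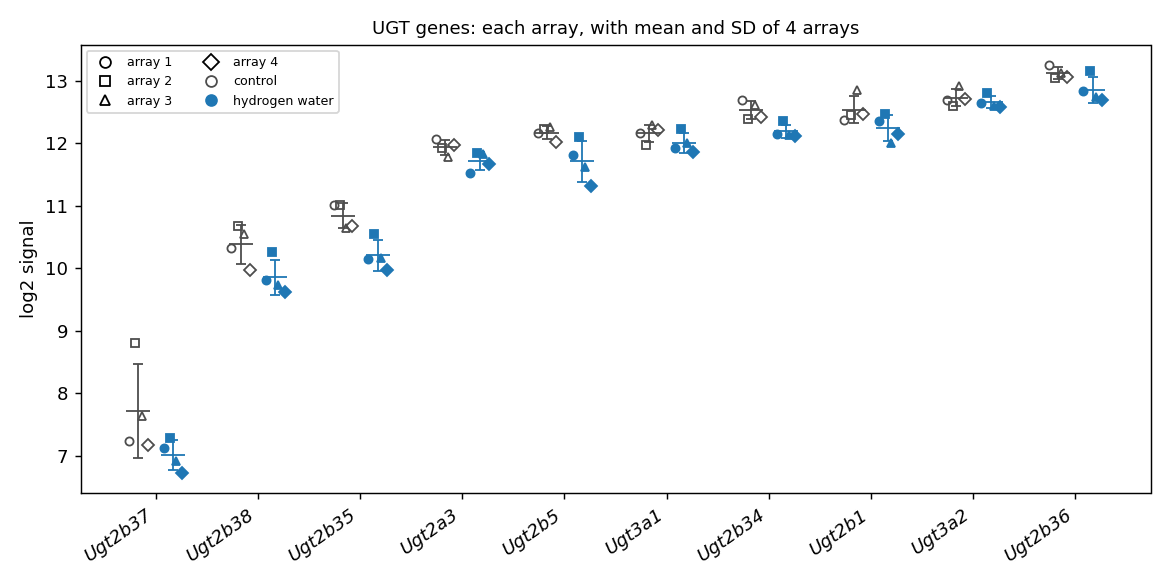
Log2 signal of the 10 UGT genes on each array, controls open and hydrogen water filled, with the shape giving the array number and the bars the mean and SD of 4 arrays; the order along the axis is by mean signal of the probe sets. Hydrogen water 2 (filled square) is the highest of its group in all 10 genes, and hydrogen water 4 (filled diamond) is below every control in all 10.

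Other gene lists varied over the same arrays, where 51.3% of all genes had a lower mean with hydrogen water. Markers of Kupffer cells, the liver's macrophages, had a higher mean with hydrogen water in 12 of 12 genes (median difference 0.35), with a mean list signal of 6.34 to 6.89 in controls and 6.61 to 7.35 with hydrogen water. The sinusoidal endothelial list had a higher mean in 9 of 9 genes (median difference 0.32), at 7.54 to 8.06 in controls and 7.81 to 8.40 with hydrogen water. At an unadjusted limma p under 0.05, 4 of the 12 Kupffer and 3 of the 9 endothelial genes were higher, against 3.6% of all genes. The groups did not overlap in 1 Kupffer and 3 endothelial genes, against 3.76% of all genes in either direction. The centred median of the Kupffer list was highest on hydrogen water 4 (0.58), where the UGT genes were mostly at their lowest, and that of the endothelial list on hydrogen water 2 (0.43), where they were highest within the group. Genes that male livers express above female livers (6 measured of 8) were lower in 5, with a median difference of −0.22 and a centred median of 0.57 on control 2 and −0.32 and −0.22 on hydrogen water 3 and 4. Genes that female livers express above male livers (6 measured of 9) were also lower in 5, with a median difference of −0.05. The hepatocyte list had a median difference of −0.01. The part of these lists in the UGT differences was not tested.

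**Figure D3:**
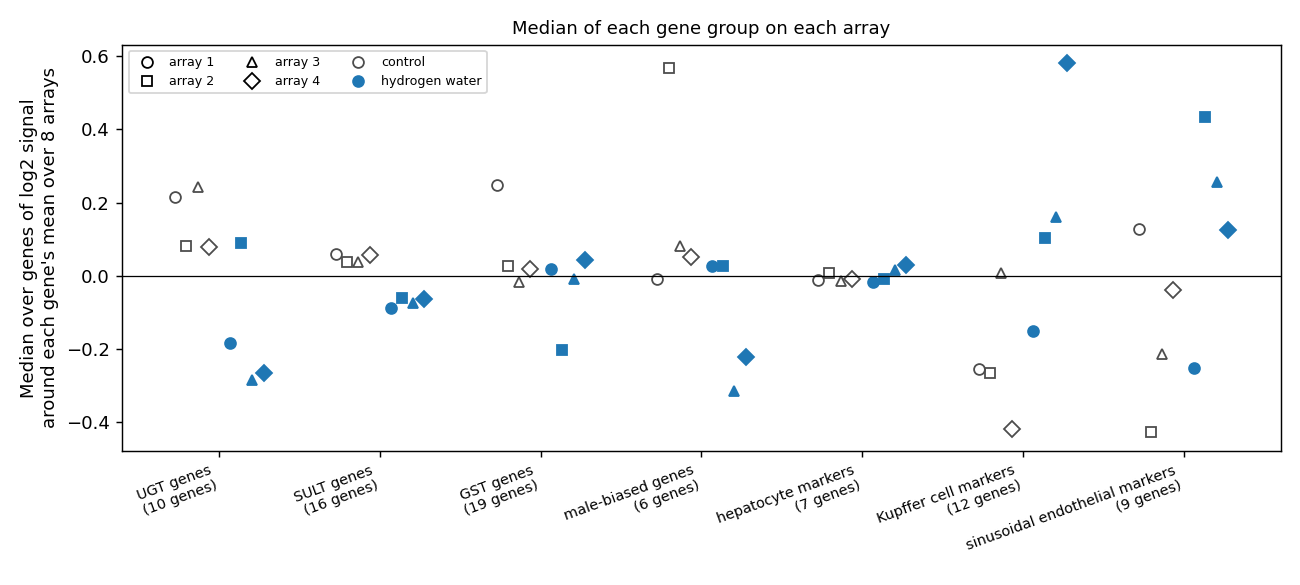
Median over the genes of each group of the log2 signal centred on each gene's mean over 8 arrays, per array, controls open and hydrogen water filled, with the shape giving the array number. The UGT medians of hydrogen water 1, 3 and 4 lie between −0.28 and −0.18 and that of hydrogen water 2 at 0.09, while the hepatocyte medians lie between −0.02 and 0.03.

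The UGT2 genes are neighbours. In the RefSeq annotation of GRCm38.p6, 13 genes of the UGT and SULT families follow each other on chromosome 5 with 0 other protein-coding genes inside the block: Ugt2b34, Ugt2b1, Ugt2b35, Ugt2b36, Ugt2b5, Ugt2b37, Ugt2a3, Ugt2b38, Ugt2a1, Ugt2a2, Sult1b1, Sult1d1 and Sult1e1. Of these, 11 had a probe set of their own. All 11 had a lower mean with hydrogen water (median difference −0.34), 7 at an unadjusted p under 0.05 and 3 with groups that did not overlap, where the shares of all genes were 51.3% lower, 7.17% at that p and 3.76% without overlap. Among the 34 members outside the block, 24 were lower (median difference −0.07), 4 had an unadjusted p under 0.05 and 3 had groups that did not overlap. The block was looked up after the differences were known and was not tested against the rest. Genes of one subfamily are similar in sequence, the probe sequences were not used here, and a probe set may read a close copy as well as its own gene, so these genes are not independent measurements.

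The similarity also shows in the bases ahead of the genes. RefSeq promoter windows (GRCm38.p6, 250 bases before the annotated start) were at hand for 41 of the 45 members, among them 9 UGT genes. The last 120 bases before the start are shown for 5 of the 6 UGT2B genes with an unadjusted limma p under 0.05, all but Ugt2b34. These 5 were picked with their differences known, and a stretch that they share was then sought in their windows. Capitals mark GTTATANTTTAAC, the longest stretch with at most 1 varying base that all 5 windows held, which resembles the site bound by the liver factor HNF1, and AGGTCA, the core hexamer of nuclear receptor sites, each searched on both strands. The sequences run 5′ to 3′ along the gene, at chr5:87000740-87000859 on the plus strand for Ugt2b35 and on the minus strand at chr5:87092556-87092675 for Ugt2b36, chr5:87140341-87140460 for Ugt2b5, chr5:87254789-87254908 for Ugt2b37 and chr5:87424204-87424323 for Ugt2b38.
Ugt2b35: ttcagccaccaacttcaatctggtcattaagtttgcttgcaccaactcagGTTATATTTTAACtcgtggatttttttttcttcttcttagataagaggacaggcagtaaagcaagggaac
Ugt2b36: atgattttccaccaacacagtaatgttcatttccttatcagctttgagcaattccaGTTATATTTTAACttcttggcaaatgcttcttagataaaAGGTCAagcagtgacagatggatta
Ugt2b5: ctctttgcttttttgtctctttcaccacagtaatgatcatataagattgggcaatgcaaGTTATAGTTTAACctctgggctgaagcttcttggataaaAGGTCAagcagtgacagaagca
Ugt2b37: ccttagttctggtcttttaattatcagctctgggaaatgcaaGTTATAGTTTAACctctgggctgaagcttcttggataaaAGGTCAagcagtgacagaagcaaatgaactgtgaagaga
Ugt2b38: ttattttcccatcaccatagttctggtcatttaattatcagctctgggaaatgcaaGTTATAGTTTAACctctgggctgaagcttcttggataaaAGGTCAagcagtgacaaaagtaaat

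The letters GTTATANTTTAAC were taken from these windows themselves, so their presence in the 5 was fixed in advance and is no support for a link with the differences. They stood in the windows of 6 of 27025 genes (0.0222%): the 5 shown and Pklr, the liver pyruvate kinase gene. Their first letter lay 61 to 78 bases before the start. AGGTCA stood in 15.8% of all genes and in the same 5 UGT genes, as well as in 3 of 15 SULT and 1 of 17 GST genes with a window. In Ugt2b36, Ugt2b5, Ugt2b37 and Ugt2b38 its first letter came 39 bases after that of the longer motif, and in Ugt2b35 it lay 215 bases before the start, outside the bases shown. The windows are partly copies of each other: the longest identical run was 82 bases between Ugt2b37 and Ugt2b38, 68 between Ugt2b37 and Ugt2b5, 24 between Ugt2b36 and Ugt2b37 and 14 between Ugt2b35 and Ugt2b36. A match describes letters and is not evidence of binding. Ugt2b34, the other UGT gene whose groups did not overlap, held neither motif in its window.

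The UGT1 locus was read by 1 probe set that names 8 genes, Ugt1a1 among them, which encodes the enzyme that conjugates bilirubin. It lies outside the 10 genes because it names several. Its controls read 11.28, 11.22, 11.28 and 11.20 and its hydrogen water arrays 11.13, 11.18, 11.18 and 11.24. The groups overlapped through hydrogen water 4, the array on which 8 of the 10 UGT genes were lowest. The difference was −0.06 (SE 0.09, 95% interval −0.25 to 0.14). Probe sets naming Ugt3a1 and Ugt3a2 together differed by −0.06 and −0.07, and a dim one naming Ugt2a1 and Ugt2a2 differed by −0.05.

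Among the 16 SULT genes, 12 had a lower mean with hydrogen water (51.3% of all genes had) and 4 a higher one, with a median difference of −0.07 (range −0.81 to 0.25). An unadjusted limma p under 0.05 was reached by 3 genes that were lower (Sult1b1, Sult1c2 and Sult2a8) and by Sult1a1, which was higher. Of all genes, 3.57% were lower and 3.6% higher at that p. The adjusted p of the family lay between 0.558 and 0.994. Most of the family was dim: 11 genes had a mean at or below the median level of all genes, and their differences had a median of −0.05. Among the 5 brighter genes, 3 were lower and 2 higher, with a median of −0.30. Pooled standard deviations ran from 0.07 to 0.63 with a median of 0.18. The number at an unadjusted p under 0.05 was 2 in place of 4 without control 1, without control 2 or without hydrogen water 3, and the family median was −0.11 without control 1.

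Sult1b1, which sulfates thyroid hormones and small phenols, had the largest difference of the 45 genes. It read 9.07, 8.70, 9.54 and 8.92 in controls and 8.07, 8.13, 8.45 and 8.32 with hydrogen water. Every hydrogen water array lay below every control, with 0.248 between the nearest values. The difference was −0.81 (SE 0.17, 95% interval −1.17 to −0.45), a percent difference in signal of −43.0%. Its limma adjusted p was 0.558, and the difference ran from −0.93 to −0.65 as each array was left out in turn. Hydrogen water 2, which was high among the UGT genes, was not so here. The windows before its annotated starts held AGGTCA (15.8% of genes) and the AhR core GCGTG (30.9% of genes), and GTTATANTTTAAC in none.

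Sult2a8, a hydroxysteroid and bile acid sulfotransferase of liver, read 11.24, 11.46, 11.43 and 11.17 in controls and 11.05, 11.16, 10.92 and 10.98 with hydrogen water. The groups did not overlap, but control 4 and hydrogen water 2 were only 0.0138 apart. The difference was −0.30 (SE 0.11, 95% interval −0.53 to −0.06).

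Sult1a1, the main phenol sulfotransferase, read 11.15, 10.95, 11.17 and 11.33 in controls and 11.33, 11.32, 11.51 and 11.45 with hydrogen water. Control 4 lay level with the lower hydrogen water arrays, and control 2 was the lowest. The difference was 0.25 (SE 0.11, 95% interval 0.02 to 0.49), and 0.18 without control 2. Its unadjusted p was no longer under 0.05 without control 1, control 2, hydrogen water 3 or hydrogen water 4. It was the only member that was higher at an unadjusted limma p under 0.05.

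Sult1c2 read 6.34, 6.51, 5.63 and 5.48 in controls and 5.54, 5.07, 5.71 and 5.58 with hydrogen water. Controls 1 and 2 stood above all other arrays, while controls 3 and 4 lay among the hydrogen water arrays. The difference was −0.52 (SE 0.22, 95% interval −1.01 to −0.03), with an exact permutation p of 0.2 (two-sided, n = 4 per group).

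Sult1d1, which sulfates catecholamines, read 12.65, 11.97, 13.04 and 12.70 in controls and 12.16, 12.71, 12.12 and 12.14 with hydrogen water. Control 2 was the lowest array and hydrogen water 2 the second highest, against the rest of their groups. The difference was −0.31 (95% interval −0.76 to 0.14), and it was −0.51 without control 2 and −0.16 without control 3. Sult1e1, the estrogen sulfotransferase, was dim and had the largest pooled standard deviation of the 45 genes (0.63). It read 3.34, 3.11, 4.86 and 4.15 in controls and 3.37, 3.96, 3.36 and 4.12 with hydrogen water, with both the highest and the lowest value in controls. The difference was −0.16 (95% interval −0.88 to 0.56), and it was 0.17 without control 3.

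The remaining SULT genes had intervals that included 0. Sult5a1 differed by 0.23 (95% interval −0.18 to 0.64), most of it from hydrogen water 4, since the difference was 0.03 without that array. Sult2b1, which sulfates cholesterol, stood at 4.60 ± 0.04 (SD, n = 4) in controls and 4.56 ± 0.13 (SD, n = 4) with hydrogen water. Sult4a1, known from brain, stood at 4.06 ± 0.22 (SD, n = 4) and 4.08 ± 0.18 (SD, n = 4). The other 7 genes (Sult1c1, Sult2a3, Sult2a6, Sult3a1, Sult3a2, Sult6b1 and Sult6b2) were dim, with differences of −0.17 to 0.05. Probe sets shared by several Sult2a genes were dim as well and differed by −0.01 and −0.04.

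Among the 19 GST genes, 13 had a lower mean with hydrogen water (51.3% of all genes had) and 6 a higher one, with a median difference of −0.09 (range −0.39 to 0.23). Only Gstm6 had an unadjusted limma p under 0.05, or 5.26% of the family, against 7.17% of all genes. The groups did not overlap in Gstm6 and in Gstz1, each by 0.0129, where the share of all genes without overlap was 3.76%. The adjusted p of the family lay between 0.656 and 0.998. Of the 19, 17 had a mean above the median level of all genes, and pooled standard deviations ran from 0.07 to 0.46 with a median of 0.18. The number at an unadjusted p under 0.05 was 0 without control 1, 2 without control 3 and 3 without control 4 or without hydrogen water 4, and the family median was −0.04 without control 1.

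Gstm6, of the mu class, read 9.78, 9.63, 9.70 and 9.59 in controls and 9.34, 9.10, 9.42 and 9.58 with hydrogen water. Hydrogen water 4 nearly met control 4, and the other hydrogen water arrays were lower. The difference was −0.32 (SE 0.12, 95% interval −0.57 to −0.06), with a limma adjusted p of 0.656. Gstz1, which is also the maleylacetoacetate isomerase of tyrosine breakdown, read 12.12, 11.98, 12.11 and 11.98 in controls and 11.70, 11.80, 11.87 and 11.97 with hydrogen water. Again hydrogen water 4 was the array nearest the controls. The difference was −0.21 (SE 0.10, 95% interval −0.43 to 0.01). When each array was centred on its median over all genes, the groups overlapped in both genes, and 0 GST genes were left without overlap.

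The mu class, with 7 genes, had a median difference of −0.22, and 5 of the 7 were lower. Gstm2 differed by −0.31 (95% interval −0.62 to 0.00), Gstm3 and Gstm4 by −0.22 each, Gstm5 by −0.15 and Gstm7 by 0.04. Gstm1, the mu enzyme long used as a liver GST marker, stood at 13.07 ± 0.18 (SD, n = 4) in controls and 13.09 ± 0.12 (SD, n = 4) with hydrogen water. Its difference of 0.02 had a 95% interval of −0.23 to 0.27.

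In the alpha class, Gsta4, which clears aldehydes of lipid peroxidation, had the largest difference of the family and the largest spread. It read 11.24, 10.77, 10.02 and 10.18 in controls and 10.38, 10.03, 10.48 and 9.75 with hydrogen water. Controls 1 and 2 were highest and the other controls lay among the hydrogen water arrays. The difference was −0.39 (95% interval −0.93 to 0.15), −0.16 without control 1 and −0.25 without hydrogen water 4. Gsta3 stood at 12.07 ± 0.23 (SD, n = 4) in controls and 12.04 ± 0.05 (SD, n = 4) with hydrogen water. The inducible genes Gsta1 and Gsta2 were read by 4 probe sets that name both together with Gm10639 and Gm3776. Their differences were −0.25 to −0.19, with intervals that included 0. On the first of these, control 1 read 10.89 and every other array 9.71 to 10.26.

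In the other classes no interval excluded 0. Gstk1, of the kappa class of mitochondria and peroxisomes, stood at 12.68 ± 0.10 (SD, n = 4) in controls and 12.70 ± 0.03 (SD, n = 4) with hydrogen water, a difference of 0.02 (95% interval −0.18 to 0.23). Gstp1, the main pi enzyme, differed by −0.06 (95% interval −0.35 to 0.22) and Gstp3 by 0.23 (95% interval −0.04 to 0.50). In the theta class, which acts on small halogenated compounds, Gstt1 differed by −0.18 and Gstt3 by −0.22 (95% interval −0.67 to 0.23), with 8.92 and 9.13 on hydrogen water 1 and 2 against 9.73 and 9.76 on hydrogen water 3 and 4. Gstt2 differed by −0.00 and the dim Gstt4 by 0.04, and the median of the class was −0.09. The omega gene Gsto1, which reduces dehydroascorbate, differed by −0.09, and the dim omega gene Gsto2 by 0.00.

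**Figure D4:**
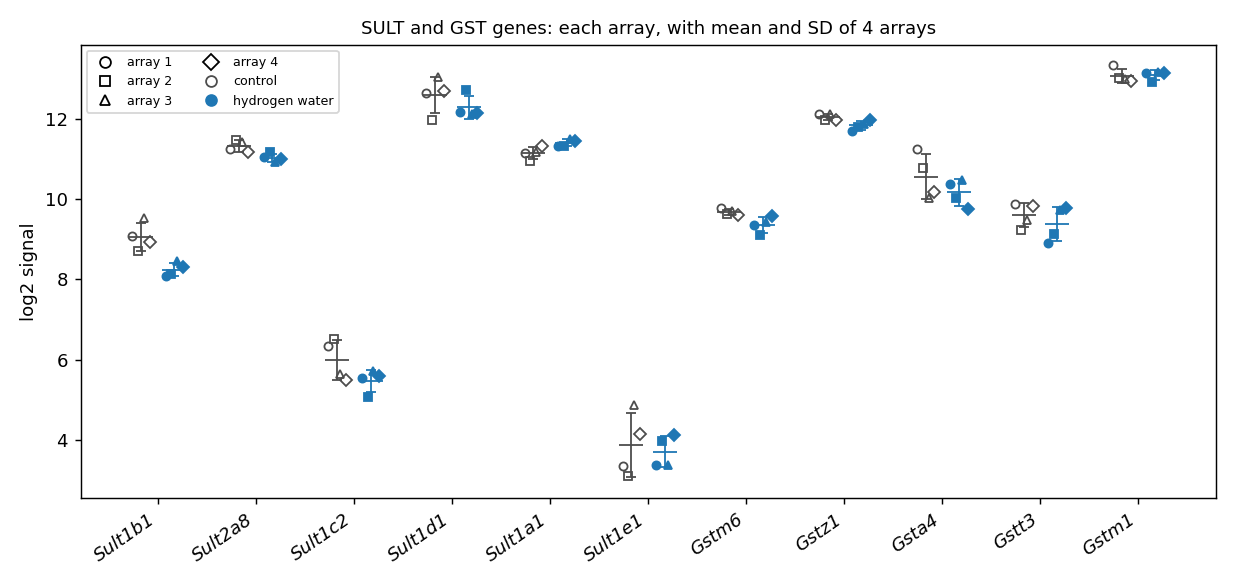
Log2 signal of 6 SULT and 5 GST genes on each array, controls open and hydrogen water filled, with the shape giving the array number and the bars the mean and SD of 4 arrays. Sult1b1 is wholly apart (8.07 to 8.45 against 8.70 to 9.54), while Gstm6 and Gstz1 are apart by 0.0129 and Gstm1 overlaps.

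The GST arrays did not fall in the order of the UGT arrays. The centred family median was highest on control 1 (0.25) and lowest on hydrogen water 2 (−0.20), the array that was highest of its group in every UGT gene. Hydrogen water 2 was the highest hydrogen water array in 0 of 19 GST genes and lay below every control in 8. Control 1 was the highest of all 8 arrays in 8 GST genes. The SULT medians lay between 0.04 and 0.06 on the controls and between −0.09 and −0.06 with hydrogen water, with a spread of 0.01, but these medians came mostly from dim genes. In the 250 bases before the start, the antioxidant response element core TGACNNNGC, the site of NRF2, stood in 3 of 17 GST genes with a window (Gsta3, Gstm5 and Gstm7), against 11.5% of all genes, and in 0 UGT and 0 SULT genes. The AhR core GCGTG (30.9% of all genes) stood in 3 SULT, 4 GST and 0 UGT genes, and the STAT5 palindrome TTCNNNGAA (8.13% of all genes) in Sult3a1 and Gstm6.

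Genes that supply the cofactors of conjugation had small differences. Of 15 measured (of 16 listed), 11 were lower and 4 higher, with a median difference of −0.05 and 0 at an unadjusted limma p under 0.05. Ugdh, which makes UDP-glucuronic acid for the UGT enzymes, differed by 0.02 (95% interval −0.26 to 0.30). Papss2, which makes the sulfate donor of the SULT enzymes, differed by 0.09 (SE 0.19). Of the glutathione synthesis genes, Gclc differed by −0.28 (SE 0.13) and Gss by −0.21 (SE 0.13), or −0.10 without control 1, and none of these passed the test.

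Other enzymes of conjugation and hydrolysis were lower in 11 of 17 measured genes (19 listed), with a median difference of −0.17. An unadjusted limma p under 0.05 was reached by 4 that were lower and 1 that was higher, against 3.57% and 3.6% of all genes. Nat8, which acetylates the cysteine conjugates left from glutathione adducts, differed by −0.63 (SE 0.21), and by −0.39 without control 3. The methyltransferases Inmt and Hnmt differed by −0.58 (SE 0.19) and −0.36 (SE 0.14), and Baat, which links bile acids to taurine or glycine, by −0.23 (SE 0.10). Hnmt differed by −0.24 without control 1. The arsenic methyltransferase As3mt differed by 0.36 (SE 0.16), and by 0.20 without control 3. The unadjusted p of Hnmt, Baat and As3mt was above 0.05 without at least 1 array. Mgst1, a membrane-bound glutathione transferase outside the families, differed by −0.08 (SE 0.09). The adjusted p of the list lay between 0.640 and 0.996.

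The receptors and regulators of the families were lower in 6 and higher in 10 of 16 measured genes (17 listed), with a median difference of 0.11. Those at an unadjusted limma p under 0.05 were Rxra (0.36, SE 0.16), the shared partner of the nuclear receptors, Ppara (0.33, SE 0.13), the fatty acid receptor, and Maff (−0.32, SE 0.14), a partner of NRF2, against 7.17% of all genes. Each of them went above that p without at least 1 array: Rxra differed by 0.22 without control 3, Ppara by 0.20 without hydrogen water 4 and Maff by −0.21 without hydrogen water 3. Nr1i2, which encodes PXR, differed by 0.11 (SE 0.15) and Nr1i3, which encodes CAR, by 0.34 (SE 0.22), the latter by 0.17 without hydrogen water 4 and by 0.57 without hydrogen water 2. The difference of Nr1i2 was 0.01 without control 3 and 0.00 without hydrogen water 4. Ahr differed by −0.15 (SE 0.17) and Nfe2l2, which encodes NRF2, by −0.03 (SE 0.16). None of these passed the adjusted test. The mean of Maff (5.53) lay below the median level of all genes.

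Targets of these regulators outside the 3 families were mixed. Of 12 NRF2 targets, 8 were lower and 4 higher (median difference −0.14), with Ces1g, Osgin1 and Nqo1 lower at an unadjusted limma p under 0.05, against 3.57% of all genes. Gclc and Gclm, both lower, are counted here and among the cofactor genes, so the lists are not separate. Without control 1 Osgin1 differed by −0.33 in place of −0.58. Nqo1, like the probe sets that name Gsta1 and Gsta2 among others, was highest on control 1, and without that array it differed by −0.25. Osgin1 and Nqo1 then had an unadjusted p above 0.05. Of 9 targets of PXR, CAR and AhR (10 listed), 6 were lower and 3 higher (median difference −0.18), 3 and 1 of them at an unadjusted p under 0.05, against 3.57% and 3.6% of all genes. Cyp2c55, an inducible cytochrome, differed by −0.87 (SE 0.22) and Cyp1a1 by −0.42 (SE 0.14), but both were dim, with means of 4.69 and 3.84. Tiparp differed by −0.34 (SE 0.15), or −0.20 without control 4, where its unadjusted p was above 0.05. Alas1, the rate-limiting enzyme of heme synthesis, differed by 0.60 (SE 0.21) in the other direction, and by 0.36 without control 2, and none of these passed the adjusted test.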

How the data were processed

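Liver RNA of 4 control and 4 hydrogen water samples was extracted with an RNeasy kit, amplified and biotin-labelled, per the labels' protocols. The authors deposited a table of log2 signals per probe set, for which the submitters' processing notes name Affymetrix Expression Console. Its version, the normalization method and the genome build were not given in the sources used here. That the unit is log2 was read from the values (1.40 to 14.78).

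Of 35556 probe sets, 21789 had 1 gene symbol in the platform annotation, 1621 several and 12146 are unnamed here. Symbols were brought up to date by Entrez identifier from RefSeq (GRCm38.p6), which held 19856 of the 19938 genes. Where a gene had several single-symbol probe sets, the one with the highest mean was used, with no filter on level. The main test was the two-sided moderated test of limma (version 3.58.1, R 4.3.3) between the 2 groups, without covariates and with 6 residual and 5.88 prior degrees of freedom. Its p-values were adjusted over all 19938 genes by Benjamini-Hochberg and read at 0.05. Exact permutation tests of single genes used all 70 assignments of the arrays. The same limma functions, but not the other steps, were tested on simulated data.

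The members, the lists of pathway and marker genes and the naming rule were chosen with earlier results of these data known, so counts over them are descriptions. Named genes were members with an unadjusted p under 0.05 or groups that did not overlap, the 4 brightest and the 2 most variable members of each family, members alone in their class, list genes meeting the same criteria, and 10 list genes whatever their values. Members outside this rule (Ugt3a1, Gstm2, Gstm3, Gstm4, Gstm5, Gstm7, Gstp3, Gstt1, Gstt2, Gstt4, Gsto1 and Gsto2) are named to complete their subfamily or class, after their values were seen. The SULT genes outside it (Sult1c1, Sult2a3, Sult2a6, Sult3a1, Sult3a2, Sult6b1 and Sult6b2) are likewise named to complete the family. Promoter windows came from RefSeq (GRCm38.p6), and motifs were searched as exact letters on both strands; the longest Ugt2b motif was read from the windows of 5 genes.

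The analysis was repeated with dim genes left out, with probe sets averaged per gene, with probe sets of several symbols added, after quantile normalization or median centring, with a trended and robust variance, with array weights, with the replicate block, and with arrays left out. Python 3.11.15 with matplotlib 3.10.9 drew the plots.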

Additional observations from a re-analysis of the deposited data

Results flagged for a closer look

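In each of the 45 genes the 4 values of each group were checked for a highest or lowest array whose distance from the nearest other, divided by the range of the group, was above Dixon's 95% critical value. Of 90 groups checked, 9 met this, where chance gives about 1 in 20, or 4.5. Hydrogen water 2 stood apart in 3 genes: Ugt2b34 (12.35, others 12.13 to 12.15), Sult1d1 (12.71, others 12.12 to 12.16) and, on the low side, Gstm1 (12.91, others 13.14 to 13.15). Hydrogen water 4 stood apart on the high side in Sult3a1 (2.89, others 2.69 to 2.71) and Gsto1 (10.86, others 10.67 to 10.70). Control 2 was low in Gstp3 (6.69, others 7.04 to 7.11) and Gstt1 (11.16, others 11.41 to 11.46). Control 3 was low in Sult4a1 (3.73, others 4.13 to 4.21) and control 1 high in Gstm3 (10.93, others 10.19 to 10.29). Sult3a1 and Sult4a1 lie below the median level of all genes. A further probe set that names Gstm3 alone was also highest on control 1 (10.28, others 8.60 to 9.32). The cause of these values was not tested.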

How the results depend on the processing

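No alternative brought a member past the adjusted threshold with limma. Of the 26 named genes at an unadjusted p under 0.05, 11 stayed under it and 15 went above it without at least 1 array, with 0 changes of sign; of the other 24, 8 went under it and 10 changed sign. All 10 UGT differences were below 0 under every scaling, filter and variance setting and with any 1 array left out; without both control 3 and hydrogen water 4, 9 of 10 were, with 2 UGT, 2 SULT and 2 GST genes at an unadjusted p under 0.05 and a SULT median of −0.049. A filter on dim genes left 3 lower SULT genes with a family median of −0.30, fewer genes being tested, and adding probe sets of several symbols gave a SULT median of −0.043. Under quantile normalization 1 UGT gene had groups that did not overlap and 2 GST genes an unadjusted p under 0.05; array weights also gave 2 GST genes, and median centring 0 GST genes without overlap. The cause of these shifts was not tested. Leaving out each array in turn gave 4 to 8 UGT, 2 to 4 SULT and 0 to 3 GST genes at an unadjusted p under 0.05, 2 to 7 UGT genes without overlap and a SULT median of −0.11 to −0.06. The share of all genes at that p then ran from 4.80% to 9.22%. The replicate numbers did not pair the arrays (correlations of same-numbered arrays −0.16 to 0.06, and 0 of 4 numbers correlated best with their own); with the replicate block, 5 UGT, 3 SULT and 1 GST gene had an unadjusted p under 0.05. With 4 arrays per group, differences of about the median SE (0.12) cannot be separated from 0. Larger ones could not either, such as the −0.30 of Ugt2b1 (SE 0.14). Dim genes, as most SULT genes are, bound little.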
